A study of Mus musculus with 4 samples.

Results

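The immediate early genes Egr1, Egr2, Egr3, Nr4a1, Nr4a3, Fos, Fosb, Jun, Junb and Jund were examined in RNA-seq data of follicular B cells from WT and Ets1-/- mice. These 10 genes of the 23305 measured were listed by symbol, as members of the Egr, Nr4a, Fos and Jun families that antigen receptor signals induce. The rule uses no measured value, although the list was drawn up with earlier results of these data known. Splenocytes of female mice were sorted for B220+ CD23-high CD21-low cells that carried neither CD80 nor switched immunoglobulin isotypes, a gate meant to keep quiescent follicular B cells, and their RNA was sequenced from 2 biological replicates of each genotype. C57BL/6 mice served as WT, while the Ets1-/- mice, which lack functional Ets1 in every cell type, were C57BL/6 x 129Sv. Genotype and strain therefore cannot be told apart in these 4 libraries. The ages of these mice were not given in the sources used here, nor whether a replicate pooled several animals. Expression is given as the FPKM that the authors deposited for each gene and library, a fragment number scaled to the length of the transcript and to the size of the library.

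Immediate early genes are transcribed within minutes of a signal from transcription factors already present in the resting cell, so that no new protein is needed. In B cells the antigen receptor reaches them through the Ras-ERK pathway, which acts on serum response factor and its Ets-family partners at CArG boxes, and through calcium. Their mRNAs decay fast, their proteins are transcription factors that switch on a second wave of genes, and the same genes also answer stress, growth factors and the handling of cells.

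Egr1, Egr2 and Egr3 encode zinc finger proteins that bind GC-rich sites, Nr4a1 and Nr4a3 encode orphan nuclear receptors that restrain responses to chronic antigen, and Fos and Jun proteins pair to form the dimeric factor AP-1. Of the 10 genes 9 were shorter than the median tested gene. Their median span from start to end in the GENCODE M1 annotation of mm9 was 3581 bases against 21931 bases over the tested genes, and the annotated exons of Jun, Junb and Jund together covered the whole span of each gene, with Junb annotated as a single exon. Nr4a3, with a span of 41295 bases on chromosome 4 from 48058025 to 48099319, was the exception, longer than 70.5% of the tested genes. A TATTTAT element, a core of the AU-rich signals that shorten mRNA life, was found in the 3′ UTR of Fos, Fosb, Jun, Jund and Nr4a3, 5 of the 10, against 27.3% of 9617 tested genes with an annotated 3′ UTR.

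The stretch from 500 bases before to 50 bases after each annotated start was searched on both strands for 5 motifs. A CArG box, CC, then 6 bases that are each A or T, then GG, was found in 3 of the 10 genes, Egr1, Fos and Fosb, against 2.54% of the 9721 tested genes with an annotated start. The boxes of the Fos genes are printed on the strand of the gene, with the box in capitals, because these were also the members with the highest or the most different values between the genotypes. The Fos box lies 309 bases before the start, within the printed stretch chr12:86814517-86814554 on the plus strand of mm9. The Fosb box lies 272 bases before the start, within the printed stretch chr7:19895643-19895680 on the minus strand.
Fos, CArG box: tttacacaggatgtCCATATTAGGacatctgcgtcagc
Fosb, CArG box: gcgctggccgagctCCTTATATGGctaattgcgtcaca

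The Ets core CCGGAA, of the kind that Ets1 and the other Ets proteins bind, was present near the start of Egr1, Junb and Nr4a1, against 35.2% of the tested genes. The 3 of 10 was thus close to the share over all genes. The Junb core lies 345 bases before the start, within the printed stretch chr8:87502943-87502976 on the minus strand. The Nr4a1 core lies 125 bases before the start, within the printed stretch chr15:101097138-101097171 on the plus strand. These cores are printed because the loss of Ets1 is what separates the genotypes. A core in capitals written as TTCCGG is the same motif on the other strand.
Junb, Ets core: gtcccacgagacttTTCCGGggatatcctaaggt
Nr4a1, Ets core: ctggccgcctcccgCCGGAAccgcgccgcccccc

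The Egr motif GCGNGGGCG was found in Fosb, Jun and Nr4a1, against 11.9% of the tested genes. It is shown at Nr4a1, where it sits 60 bases before the start, within the printed stretch chr15:101097203-101097239 on the plus strand. It is also shown at Fosb, where the nearer match sits 50 bases before the start, within chr7:19895422-19895458 on the minus strand. The AP-1 motif TGANTCA was found in Fos, against 9.69% of the tested genes. It lies 462 bases before the start, within the printed stretch chr12:86814364-86814398 on the plus strand. The cyclic AMP element TGACGTCA was found in 0 of the 10 genes in this window and in 3.91% of the tested genes. The printed matches do not overlap one another. A match describes letters in the genome and not binding.
Nr4a1, Egr motif: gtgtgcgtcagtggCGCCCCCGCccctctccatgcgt
Fosb, Egr motif: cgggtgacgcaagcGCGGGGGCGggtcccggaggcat
Fos, AP-1 motif: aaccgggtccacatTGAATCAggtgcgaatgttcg

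The number of reads behind the values is not part of the files, and the steps between low FPKM values gave approximate relative depths of 1.00 and 1.75 for WT replicates 1 and 2 and of 1.67 and 0.876 for Ets1-/- replicates 1 and 2. Ets1 itself was at 231 and 275 FPKM in the WT and at 229 and 229.8 FPKM in the Ets1-/- libraries. The mutation removes part of the transcript, so the level of the whole gene does not check the labels. The 9 follicular B cell markers in the files summed to 7649 to 7882 FPKM in WT and to 6603 to 7694 FPKM in Ets1-/- libraries, and 0 of the 9 were called changed. Markers of other cell types did differ between the libraries and are described beside the results below.

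The 10 genes covered a wide range of levels in cells sorted as quiescent. On the FPKM scale, which is per length, Fos, Jun, Junb and Jund were high in all 4 libraries, and Fos ranked between 87 and 156 among the 23305 genes. Egr1 and Fosb came next, with ranks between 185 and 609 for Egr1 and between 193 and 1317 for Fosb. Nr4a1 and Egr3 had lower means than these in both genotypes, although Nr4a1 was above Fosb in WT replicate 1. Egr2 was lower still, and Nr4a3 was near the floor. Summed over the 10 genes, the libraries held 2565 and 4432 FPKM in WT replicates 1 and 2 and 6417 and 6871 FPKM in Ets1-/- replicates 1 and 2.

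In Ets1-/- B cells 7 of the 10 genes, Egr1, Egr2, Fos, Fosb, Jun, Junb and Jund, were higher in both libraries than in both WT libraries, while Egr3 and Nr4a1 overlapped. Nr4a3 was too low to test. For a gene to be called changed, its difference in log2(FPKM + 1) had to reach 1 and its Benjamini-Hochberg adjusted p in limma had to be no more than 0.05. None of the 9 tested genes, 0 of 9, was called, beside 186 of 10949 genes, or 1.70%, over the whole table. At an unadjusted p under 0.05 from limma 4 of the 9, Egr1, Egr2, Fos and Fosb, were higher, beside 6.39% of all tested genes. The 7 of 9 that were higher without overlap stand beside 19.4% of all tested genes, and the 0 of 9 that were lower without overlap beside 22.2%. The median log2 fold change was 0.82 over the 9 genes and -0.02 over all tested genes.

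These results depended on each WT replicate and on the scaling. Without WT replicate 1 the log2 differences of Egr1, Fos and Fosb were 1.11, 0.79 and 1.14. The median of the 9 genes was then 0.50. Without WT replicate 2 these log2 differences were 2.03, 1.69 and 2.80, and the median was 1.25. A fit with a lone WT library assumes that it varies as the Ets1-/- libraries did. With the libraries rescaled to equal FPKM totals, which moved the median log2 fold change of all genes to -0.19, that of the 9 genes was 0.64. Egr1 and Fosb were then called, beside 371 of 10954 genes over the whole table. At this scaling 6 of 9 were higher without overlap, Jund no longer among them, and the share over all genes was not counted. The cause of these shifts was not tested. As these are bulk samples, a gene at a higher level in each cell and a gene on in more of the cells cannot be told apart.

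**Figure D1:**
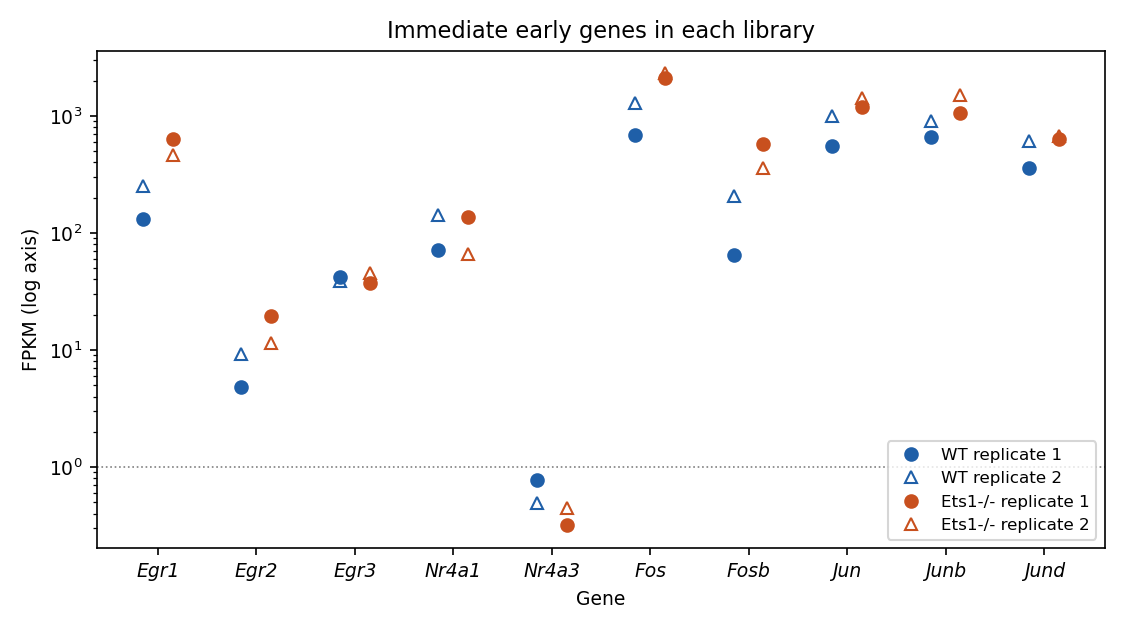
FPKM of the 10 immediate early genes on a log axis, with 1 point per library (2 per genotype). The dotted line marks 1 FPKM, the mean that a gene had to reach in at least 1 genotype to be tested. For Egr1, Egr2, Fos, Fosb, Jun, Junb and Jund both Ets1-/- points lie above both WT points, and WT replicate 1 is the lowest of the 4 libraries for each of these 7 genes.

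Fos, which pairs with Jun proteins in the classical AP-1 dimer, had the highest level of the 10 genes in each of the 4 libraries. Its FPKM was 687 and 1283 in WT replicates 1 and 2 and 2119.9 and 2307 in Ets1-/- replicates 1 and 2. The WT replicates lay farther apart than the Ets1-/- replicates, and the lowest Ets1-/- library was above the highest WT library. The genotype means of 985 ± 421 and 2214 ± 133 FPKM (SD, n = 2 each) had a ratio of 2.25. On the log2(FPKM + 1) scale the difference was 1.24 (standard error 0.35, 95% confidence interval 0.34 to 2.13), and limma gave an adjusted p of 0.204 (Benjamini-Hochberg). The log2 difference was 0.79 without WT replicate 1 and 1.69 without WT replicate 2. Fos lies on chromosome 12 from 86814840 to 86818223 of mm9.

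Fosb, the closest relative of Fos among the members, had the largest log2 difference of the 9 tested genes. Its FPKM was 64.5 and 206 in the WT and 577 and 360.2 in the Ets1-/- libraries. WT replicate 1 stood well below the other 3 libraries, and the Ets1-/- replicates were also apart, with replicate 1 the higher. Its means were 135 ± 99.9 and 469 ± 153 FPKM (SD, n = 2 each) in WT and Ets1-/- B cells, a ratio of 3.47. Its log2 difference of 1.97 (standard error 0.58, 95% confidence interval 0.49 to 3.46) carried an adjusted p of 0.219 (limma, Benjamini-Hochberg). Leaving out 1 library at a time moved this difference between 1.14, without WT replicate 1, and 2.80, without WT replicate 2. Fosb lies on chromosome 7 from 19888070 to 19895394.

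Egr1, the most abundant Egr gene of these cells, had an FPKM of 132 in WT replicate 1, 250.2 in WT replicate 2, 636 in Ets1-/- replicate 1 and 462 in Ets1-/- replicate 2. Every Ets1-/- value was above every WT value, and the replicates of each genotype differed by 1.90-fold in WT and 1.38-fold in Ets1-/- B cells. The log2 difference was 1.57 with a 95% confidence interval of 0.66 to 2.49, and the adjusted p was 0.133 (limma, Benjamini-Hochberg). The log2 difference was 1.11 without WT replicate 1 and 2.03 without WT replicate 2. After rescaling to equal totals the adjusted p was 0.0194 (limma). Over the 11 alternatives with a value for the gene, a fit that blocked on crossed replicate numbers aside, in which Egr1, Egr2 and Fosb were called, it lay between 0.0194 and 0.281 (limma). Egr1 lies on chromosome 18 from 35020861 to 35024638.

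Egr2, which with Egr3 is known to hold back lymphocyte responses, was low, at 4.86 and 9.20 FPKM in the WT and 19.4 and 11.6 FPKM in the Ets1-/- libraries. Its Ets1-/- values were above the WT values, although Ets1-/- replicate 2 exceeded WT replicate 2 by less than the WT replicates differed. Means of 7.03 ± 3.07 FPKM in WT and 15.5 ± 5.55 FPKM in Ets1-/- B cells (SD, n = 2 each) gave a log2 difference of 1.05 (standard error 0.36, adjusted p = 0.288, limma). Without WT replicate 1 this difference was 0.65. Egr2 lies on chromosome 10 from 66998223 to 67004936.

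Egr3, on chromosome 14 from 70477252 to 70479964, was at 41.7 and 39.2 FPKM in the WT and 37.5 and 45.1 FPKM in the Ets1-/- libraries. The 4 values were close and the genotypes overlapped. The means were 40.5 ± 1.78 and 41.3 ± 5.37 FPKM (SD, n = 2 each), and the log2 difference was 0.02 with a 95% confidence interval of -0.37 to 0.42 (limma). Its sign turned with the scaling, to -0.16 at equal totals, and no direction is given for it.

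Jun, the founding AP-1 partner and a target of the JNK kinases, measured 549 and 991 FPKM in the WT and 1189.6 and 1432 FPKM in the Ets1-/- libraries. Its Ets1-/- values were the higher, and the gap between WT replicate 2 and Ets1-/- replicate 1 was smaller than the gap between the WT replicates. The WT and Ets1-/- means, 769.9 ± 313 and 1311 ± 171 FPKM (SD, n = 2 each), had a ratio of 1.70. The log2 difference of 0.82 had a 95% confidence interval of -0.04 to 1.69 and an adjusted p of 0.400 (limma, Benjamini-Hochberg). Without WT replicate 1 the log2 difference was 0.40, and without WT replicate 2 it was 1.25. Jun lies on chromosome 4 from 94715725 to 94718913.

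Junb, which in many settings acts against Jun, was at 654 and 898 FPKM in the WT and at 1064 and 1511 FPKM in the Ets1-/- libraries. WT replicate 2 and Ets1-/- replicate 1 were the nearest pair across the genotypes. The log2 difference was 0.73 (95% confidence interval -0.01 to 1.46, limma) and the ratio of means 1.66. Without Ets1-/- replicate 2 the log2 difference was 0.47. Junb lies on chromosome 8 from 87500811 to 87502617.

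Jund, the Jun gene that resting cells keep on, measured 360.2 and 614 FPKM in the WT and 637 and 676 FPKM in the Ets1-/- libraries. WT replicate 2 was near the Ets1-/- libraries and WT replicate 1 stood apart below. The log2 difference was 0.48 (95% confidence interval -0.28 to 1.24, limma), the smallest of the 3 Jun genes, and the ratio of means was 1.35. It fell to 0.10 without WT replicate 1 and was 0.86 without WT replicate 2. Jund lies on chromosome 8 from 73221638 to 73224515.

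Nr4a1, which encodes Nur77 and is widely used as a reporter of antigen receptor signals, was at 70.8 and 141 FPKM in the WT and at 137 and 66.2 FPKM in the Ets1-/- libraries. Each genotype held 1 high and 1 low library, and the ranges of the genotypes overlapped almost wholly. The means, 106 ± 49.9 in WT and 102 ± 49.9 FPKM in Ets1-/- B cells (SD, n = 2 each), gave a log2 difference of -0.07 (95% confidence interval -1.27 to 1.13, limma). The interval spans a 2-fold change in either direction, so that a difference of that size was not detectable with these replicates. The high libraries, WT replicate 2 and Ets1-/- replicate 1, were also the deeper ones, and the part of depth in this was not tested. Nr4a1 lies on chromosome 15 from 101097277 to 101105223. Nr4a3 stood at 0.782 and 0.494 FPKM in the WT and 0.318 and 0.447 FPKM in the Ets1-/- libraries and was not tested, its mean being under 1 FPKM in both genotypes.

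**Figure D2:**
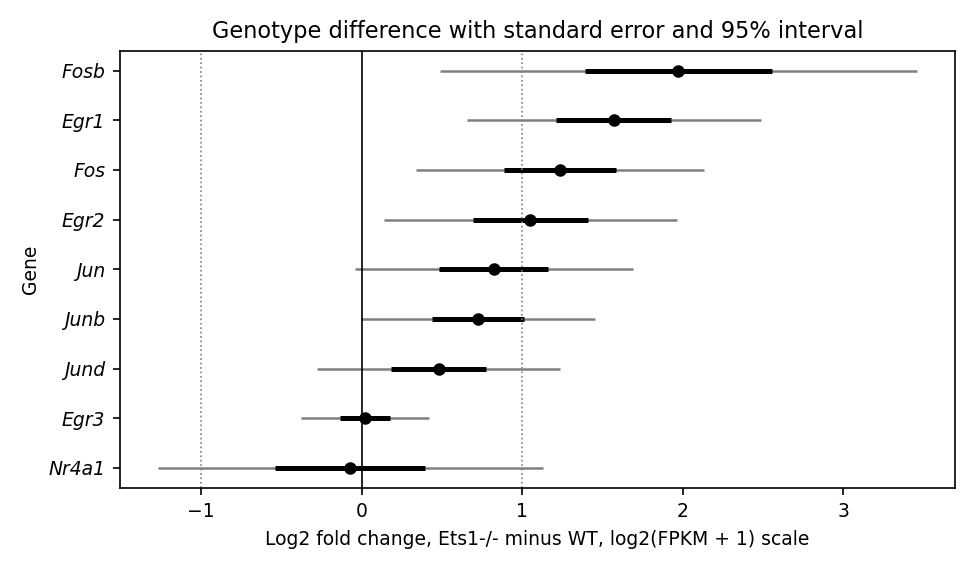
Log2 fold change (Ets1-/- minus WT, on the log2(FPKM + 1) scale) of the 9 tested genes from limma, with thick bars for the standard error, thin bars for the 95% confidence interval and dotted lines at 2-fold changes. The intervals of Egr1, Egr2, Fos and Fosb lie above 0, those of Jun and Junb just reach it, and those of Jund, Egr3 and Nr4a1 span it.

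Ratios between 2 members within a library do not depend on a scaling factor of that library. Egr1 and Egr2 kept nearly the same proportion in WT, with 27.1 and 27.2 FPKM of Egr1 per FPKM of Egr2, and stood at 32.8 and 39.9 in Ets1-/- B cells. Egr1 per Egr3 was 3.16 and 6.38 in the WT and 17.0 and 10.2 in the Ets1-/- libraries. The Ets1-/- ratios lay above the WT ratios, without overlap. As shares of the Egr total, Egr1 made up 73.9% and 83.8% in WT and 91.8% and 89.1% in Ets1-/- B cells, and Egr3 made up 23.4% and 13.1% against 5.41% and 8.69%.

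Nr4a1 per Egr1, a ratio of a pair that antigen receptor signals turn on, was 0.536 and 0.565 in the WT libraries, which agreed closely although both genes differed nearly equally between those replicates, and 0.215 and 0.143 in the Ets1-/- libraries. No Ets1-/- ratio came near the WT ratios.

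Within AP-1, Fos stood higher relative to Jun and Jund in Ets1-/- B cells. Fos per Jun was 1.25 and 1.29 in the WT and 1.78 and 1.61 in the Ets1-/- libraries, and Fos per Jund was 1.91 and 2.09 against 3.33 and 3.41. For both ratios the distance between the genotypes exceeded the distance between replicates. Fos per Junb, at 1.05 and 1.43 in the WT and 1.99 and 1.53 in the Ets1-/- libraries, did not overlap either, but its genotypes lay closer together than the replicates of each. Fosb per Fos, at 0.0939 and 0.160 in the WT and 0.272 and 0.156 in the Ets1-/- libraries, overlapped between the genotypes. Junb per Jun overlapped as well, at 1.19 and 0.906 in WT and 0.894 and 1.06 in Ets1-/- B cells. Jun made up 35.1% to 41.2% of the Jun total over the 4 libraries. Jund made up 23.0% and 24.5% of it in the WT and 22.05% and 18.7% in the Ets1-/- libraries. Jun per Jund was 1.52 and 1.61 in the WT and 1.87 and 2.12 in the Ets1-/- libraries, without overlap. These pairs of genes were picked with the values in view, so their ratios are descriptions without a test.

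**Figure D3:**
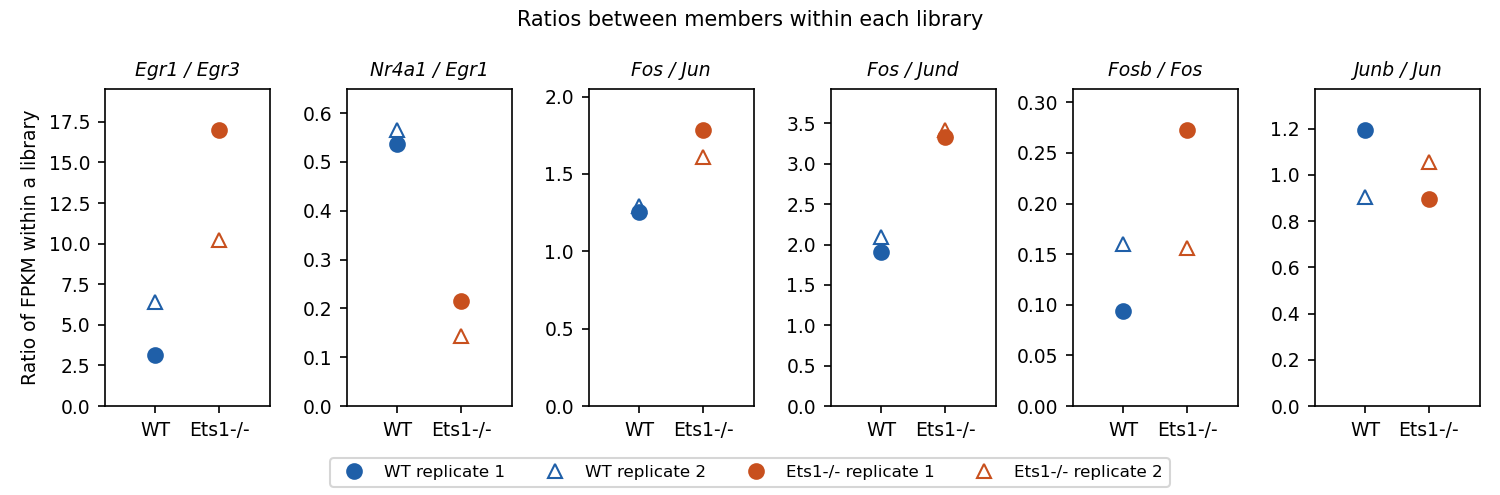
Ratios of FPKM between pairs of immediate early genes within each library, with 1 point per library, 1 panel per pair and vertical axes that start at 0. Egr1 per Egr3, Nr4a1 per Egr1, Fos per Jun and Fos per Jund separate the genotypes, whereas Fosb per Fos and Junb per Jun overlap.

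The members also differed between replicates of a genotype. Between the WT libraries, 7 of the 9 tested members were at least 1.5-fold higher in replicate 2 than in replicate 1, namely Egr1, Egr2, Nr4a1, Fos, Fosb, Jun and Jund, beside 4.86% of the 10949 tested genes. The reverse held for 0 of 9 members and 2.83% of genes. Fosb had the widest gap, 3.19-fold, and Egr3 had the narrowest, with replicate 2 at 0.940 of replicate 1. WT replicate 2 was also the deeper library, and the part of depth was not tested.

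Between the Ets1-/- libraries the members went both ways. Egr2, Nr4a1 and Fosb, 3 of the 9, were higher in replicate 1 than in replicate 2 by 1.5-fold or more, beside 13.9% of all tested genes. Fos, Jun, Junb, Jund and Egr3 were instead lower in replicate 1, with ratios of replicate 1 to replicate 2 between 0.704 and 0.943. Nr4a1 had the widest gap here, 2.07-fold.

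**Figure D4:**
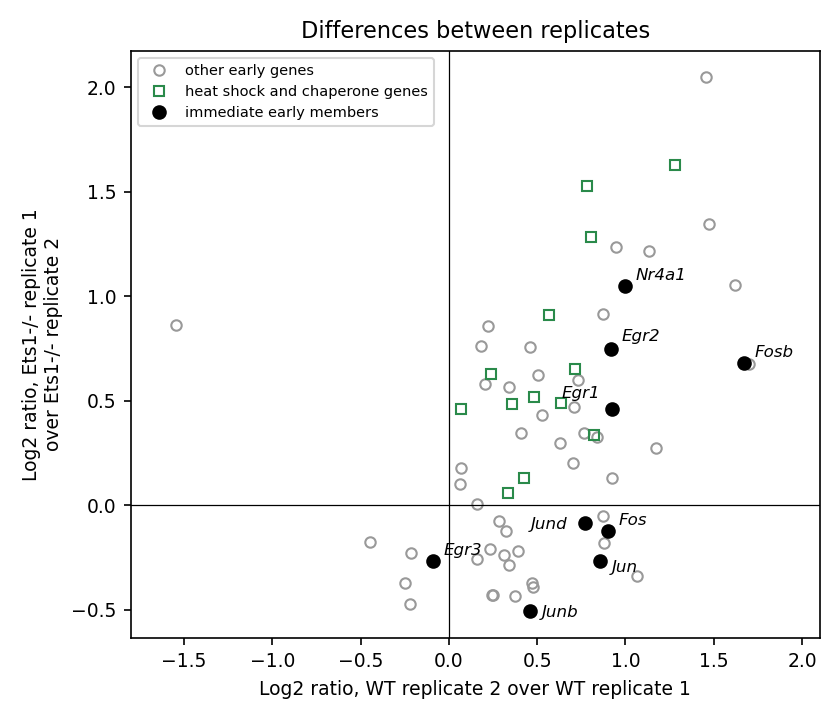
Log2 ratio of WT replicate 2 to WT replicate 1 (x axis) against the log2 ratio of Ets1-/- replicate 1 to Ets1-/- replicate 2 (y axis) for the tested immediate early genes, the other early genes and the heat shock genes. All tested immediate early genes but Egr3 lie to the right of 0, and the 13 heat shock genes lie above 0 on both axes.

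Relatives of the members were mostly low. Of 9 listed genes of the same families, 4 could be tested and 0 were called. Atf3, a stress-induced partner of AP-1, was at 1.03 and 3.91 FPKM in the WT and 37.3 and 3.54 FPKM in the Ets1-/- libraries, so that 1 library, Ets1-/- replicate 1, set its log2 difference of 2.06 (adjusted p = 0.533, limma). Nr4a2 had the same form at lower levels, with 0.200 and 0.607 FPKM in WT and 2.69 and 0.684 FPKM in Ets1-/- B cells. Batf, an AP-1 factor without an activating domain, was steady at 24.6 to 29.7 FPKM in all 4 libraries. Egr4, Fosl1, Fosl2 and Batf3 had means under 1 FPKM, and Batf2 was listed at 0 in every library.

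Other genes of the early response were described by a list of 47, which holds dual-specificity phosphatases, Klf and Ier genes and similar early genes. Of the 46 tested, 1 rose past the threshold, 1 fell past it, 10 were higher and 4 lower at an unadjusted p under 0.05 (limma), and 18 were higher and 6 lower without overlap. Over all tested genes 6.39% were higher and 6.95% lower at that p, and 19.4% were higher and 22.2% lower without overlap. The median log2 fold change of the list was 0.35 and its range -1.84 to 1.79, so that the list did not move as 1 block. Dusp4, a nuclear phosphatase that switches off ERK, rose from 15.4 and 17.2 FPKM in the WT to 34.9 and 41.8 FPKM in the Ets1-/- libraries, a log2 difference of 1.18 (standard error 0.16, adjusted p = 0.0420, limma). Slc2a3, a glucose transporter that is induced on activation, fell from 16.2 and 17.0 FPKM to 4.15 and 3.67 FPKM, a log2 difference of -1.84 (adjusted p = 0.00954, limma).

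The early genes with the largest positive differences were Klf4, Dusp1 and Bhlhe40. Klf4, a factor that keeps B cells out of cycle, was at 24.1 and 54.3 FPKM in the WT and 141 and 116 FPKM in the Ets1-/- libraries (log2 difference 1.79, adjusted p = 0.120, limma). Dusp1, which inactivates p38 and JNK, was at 136 and 244 FPKM in WT and 603 and 481 FPKM in Ets1-/- B cells (log2 difference 1.56, adjusted p = 0.109, limma). Bhlhe40, a transcriptional repressor, was at 20.8 and 33.9 FPKM against 88.5 and 64.0 FPKM, with an adjusted p of 0.0941 (limma). In all 3 genes the Ets1-/- libraries were above the WT libraries, and WT replicate 1 was the lowest library, as in the Fos genes. Dusp5, another ERK phosphatase, lay at the other end, at 11.2 and 8.22 FPKM in WT and 3.34 and 3.78 FPKM in Ets1-/- B cells (log2 difference -1.22, adjusted p = 0.0568, limma).

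The gap between the WT replicates extended to this list. WT replicate 2 was above WT replicate 1 in 41 of the 46 early genes, or 89.1%, beside 49.5% of all tested genes. In the Ets1-/- libraries replicate 1 was above replicate 2 in 27 of the 46, or 58.7%, beside 45.5% of all tested genes.

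Surface and secreted products of antigen receptor stimulation were described by a list of 14. Of these 13 were tested, 0 rose and 2 fell past the threshold, and the median log2 fold change was -0.05. Ccl3 and Ccl4, chemokines that activated B cells release, went from 7.37 and 9.05 FPKM to 1.63 and 1.28 FPKM for Ccl3 (log2 difference -1.90, adjusted p = 0.0144, limma) and from 6.18 and 7.81 FPKM to 2.16 and 2.12 FPKM for Ccl4 (log2 difference -1.34, adjusted p = 0.0349, limma). Cd69, the early activation antigen that holds lymphocytes in tissue, had 58.3 and 162 FPKM in the WT and 293 and 115 FPKM in the Ets1-/- libraries. Its genotypes overlapped, with the higher library of each genotype being WT replicate 2 and Ets1-/- replicate 1, as for Nr4a1.

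Of 4 genes whose products act on Egr factors or their responses, Nab1, Nab2, Cited2 and Tob1, 0 were called, and their median log2 fold change was -0.16. Nab2, a corepressor that Egr proteins induce and that in turn silences them, was at 39.5 and 28.6 FPKM in the WT and 24.5 and 40.2 FPKM in the Ets1-/- libraries, which overlapped. Egr1 per Nab2 was 3.34 and 8.75 in WT and 26.0 and 11.5 in Ets1-/- B cells. The ratio was higher in the Ets1-/- libraries, and it varied more than 2-fold within each genotype.

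Of 18 factors that act on early gene promoters, among them serum response factor, its Ets-family partners, CREB and MEF2 factors, 1 fell past the threshold and 0 rose, with a median log2 fold change of -0.11. The gene that fell was Elk3, an Ets-family partner of serum response factor that can repress Fos through the CArG box region. Elk3 was at 16.0 and 16.6 FPKM in the WT and 6.91 and 7.76 FPKM in the Ets1-/- libraries. The replicates agreed closely and the genotypes did not overlap, and the log2 difference was -1.06 (standard error 0.14, adjusted p = 0.0402, limma). Mef2b had the largest positive difference of the list, 0.86, and was not called (adjusted p = 0.224, limma).

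Of 21 kinases and activators of the ERK, JNK and p38 pathways 0 were called, and their log2 fold changes lay between -0.46 for Mapk8, the JNK1 gene, and 0.43 for Rasgrp1, an activator of Ras, around a median of 0.03. Of 14 listed partners and modulators of AP-1, 12 were tested, 0 were called and the median was 0.01. Bach2, a repressor that competes at AP-1 sites and keeps B cells from plasma cell fate, had the largest difference of that list, from 25.2 and 25.6 FPKM in the WT to 43.4 and 39.4 FPKM in the Ets1-/- libraries. Its replicates were close and its genotypes did not overlap, but its adjusted p of 0.0975 (limma) missed the threshold and its log2 difference was 0.68.

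**Figure D5:**
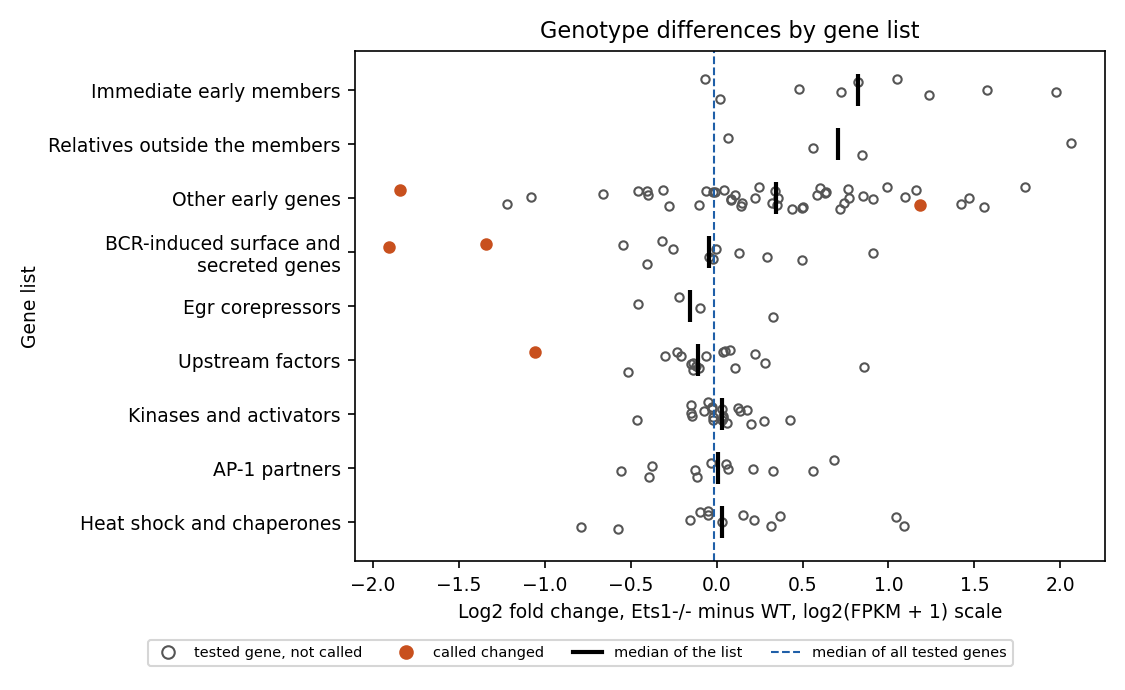
Log2 fold change (Ets1-/- minus WT, log2(FPKM + 1) scale) of every tested gene of the 9 immediate early genes and of 8 lists of related genes, with a bar at each list's median and a dashed line at the median of all tested genes. The medians of the 9 immediate early genes and of their 4 tested relatives are 0.82 and 0.70, and the relatives range from 0.07 to 2.06. The lists of upstream factors, kinases and AP-1 partners centre near 0. Batf and Jdp2 are on both the list of relatives and that of AP-1 partners.

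Heat shock and chaperone genes, which answer the handling and warming of cells, were examined because they share inducers with the Fos and Jun genes. Of the 13 tested, 0 were called, and their median log2 fold change was 0.03. Hspb1 and Bag3 had the largest positive differences, 1.09 and 1.04, and Hspa1b and Hspa1a the largest negative ones, -0.79 and -0.58. All 13 were higher in WT replicate 2 than in WT replicate 1 and higher in Ets1-/- replicate 1 than in Ets1-/- replicate 2. Egr1, Egr2, Nr4a1 and Fosb had both of these differences, whereas Fos, Jun, Junb and Jund had only the WT one. WT replicate 2 and Ets1-/- replicate 1 were also the deeper libraries of their genotypes. The parts of handling and of depth in the differences between these libraries were not tested.

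Some markers of other cells differed between the genotypes. Of 14 neutrophil genes 13 were higher in both Ets1-/- libraries than in both WT libraries, 3 were called (Ngp, Ltf and Camp), and their sum was 119 and 98.2 FPKM in the WT and 2594 and 714 FPKM in the Ets1-/- libraries. Ets1-/- replicate 1 thus held 3.63 times the neutrophil sum of replicate 2. Nr4a1, Egr2, Fosb and Egr1 were also higher in replicate 1, by 2.07-fold, 1.68-fold, 1.60-fold and 1.38-fold. Fos, Jun, Junb, Jund and Egr3 were lower there. Monocyte and macrophage markers summed to 67.5 and 32.6 FPKM in WT and 154 and 96.8 FPKM in Ets1-/- B cells, with 1 of 8, Emr1, called, 2 higher without overlap and 6 overlapping. Erythroid genes summed to 6.22 and 4.84 FPKM against 87.9 and 27.6 FPKM, with 0 of 4 called and 3 higher without overlap. T cell markers summed to 332 and 337 FPKM in the WT and 305 and 384 FPKM in the Ets1-/- libraries. Cd2 alone held 190 and 219 FPKM of the WT sums and 194 and 244 FPKM of the Ets1-/- sums. Of the 12 T cell markers tested 1 was higher and 4 were lower without overlap, with 0 called. These counts for markers of other cells stand beside 19.4% of all tested genes higher and 22.2% lower without overlap. The part of other cells in the levels of the immediate early genes was not tested.

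Mean-centred log2(FPKM + 1) profiles over the 4 libraries were compared with the mean profile of each family's tested members. The genes at the smallest distance were sought over 10940 tested genes outside the members. For the Fos pair they were Klf4 (distance 0.213), Dusp1, Gm2848, Bhlhe40 and Cebpb (0.478). For the 3 Egr genes they were 1700056E22Rik (0.0916), Hist1h4h, Trib1, Hrsp12 and 1700048O20Rik (0.159). The Egr mean joins Egr1, Egr2 and Egr3, with log2 differences of 1.57, 1.05 and 0.02, so its nearest genes need not follow any single Egr gene. Nr4a1 was followed most closely by Plk2, at 10.9 and 24.0 FPKM in the WT and 24.5 and 10.6 FPKM in the Ets1-/- libraries, then by Snord12, Gm6377, Gm13826 and Hsp90aa1. The mean of the 3 Jun genes was nearest to Hist1h3h, Snora64, Hist1h4m, Gm13476 and Tmem107, with distances from 0.156 to 0.201. Hist1h3h was near the floor, at 0 to 1.32 FPKM. With 4 libraries such likeness describes these samples and nothing more.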

How the data were processed

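RNA-seq data of 2 WT and 2 Ets1-/- samples of sorted follicular B cells were used. The authors prepared libraries with a kit that does not mark strand, aligned reads to mm9 with TopHat2 2.0.13 (version from the submitters' processing notes) and deposited FPKM values per gene symbol made with Cuffdiff. The gene annotation and any scaling between libraries were not given in the sources used here. FPKM is already scaled to transcript length and library size. The files hold no counts, so count tests were not run, and reads of a gene and of an antisense partner cannot be told apart.

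Each library lists 23309 entries, and 4 whose symbol recurs were dropped. Genes averaging 1 FPKM or more in a genotype, 10949 in all, were fitted as log2(FPKM + 1) by genotype with limma 3.58.1 in R 4.3.3 (eBayes with trend, 2 residual and 3.1 prior degrees of freedom), and p-values, all two-sided, were adjusted by Benjamini-Hochberg over all of them. The scale understates changes of low genes. Called genes passed a 2-fold difference on that scale and an adjusted p threshold of 0.05. The script was tested on simulated data. A permutation of 2 against 2 cannot go below p = 0.33 and was not used. Positions, starts and sequences came from the mm9 genome with GENCODE M1, and other values from Python 3.11.15 with pandas 2.3.3.

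The members and the 8 pathway and 9 marker lists were chosen with earlier results of these data known. Named genes were all members, every called gene of the lists, up to 3 genes with the largest and 2 with the smallest log2 fold change of a list, the 5 nearest profiles per family, and Ets1. Batf3, Batf2, Egr4, Fosl1, Fosl2, Nab2 and Cd2 were named outside this rule, after their values were seen, and so were the pairs of members in ratios. P-values rest on the spread between 2 samples per genotype, which limma draws toward a trend fitted over all tested genes. Alternatives covered the pseudocount, the filter, scaling, the replicate block, robust estimation, no test and each library left out.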

Additional observations from a re-analysis of the deposited data

How the results depend on the processing

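The number of members higher without overlap, 7, was 7 with quantile or upper-quartile scaling and 6 at equal totals. It was 7 or 8 with 1 library left out, a step that cannot lower it. Another pseudocount or filter leaves the order of the values as it is, so neither tests this count. The median log2 fold change of the 9 tested members was 0.50 to 1.25 with 1 library left out. Of the 9 tested members 0 were called with another pseudocount, filter, quantile or upper-quartile scaling or robust estimation, and 0 to 3 with 1 library left out. Rescaling to equal totals, chosen after seeing the data, called 2 members and 371 genes in all, against 186. Requiring only a 2-fold ratio of means without overlap gave 4 members and 696 genes. Without the filter on low values 75 genes were called, and with robust estimation 305, and the cause was not tested. With 1 library left out the count was 130 to 144. Egr3 then ranged from -0.11 to 0.15 and Nr4a1 from -0.59 to 0.45, so neither kept its sign, and Egr3 was -0.16 at equal totals. The other 7 members kept theirs.

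With the replicate number as a block 0 members and 266 genes were called. The labels share only the numbers, and same-numbered deviations correlated at -0.207 across 10949 genes. The crossed pairing, of replicate 1 of each genotype with replicate 2 of the other, was added after seeing the data and called 3 members and 409 genes. Depth is known only in relative terms, and 2 libraries per genotype limit what can be called.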

Other observations

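Markers of 4 further cell types were summed in the same libraries. Dendritic cell genes were low, at 5.49 and 4.65 FPKM in WT and 7.29 and 6.82 FPKM in Ets1-/- B cells. Plasma cell genes summed to 342 and 403 FPKM in the WT and 409.9 and 442 FPKM in the Ets1-/- libraries. Of these 6 genes 3 were higher without overlap, Sdc1, Prdm1 and Mzb1, and 2 were lower, Xbp1 and Irf4. Over all tested genes the shares were 19.4% and 22.2%. Marginal zone and B1 B cell genes summed to 208 and 243 FPKM against 168 and 113 FPKM, and germinal centre and cycling genes to 53.0 and 73.4 FPKM against 49.1 and 54.5 FPKM. In all 7 germinal centre and cycling genes tested WT replicate 2 was above WT replicate 1, the direction that 8 of the 9 tested immediate early genes had, beside 49.5% of all tested genes. Of these lists 0 genes were called changed by limma.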
